A study of Mus musculus with 8 samples.

Results

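Genes named for the cell cycle were followed in mouse hippocampal neuron cultures that had been kept with AraC, a nucleoside analogue that kills dividing cells. The rule for the set reads gene symbols: cyclins, cyclin-dependent kinases, their inhibitors, Mcm helicase subunits and E2f factors numbered in their symbols, plus Cdc6, Cdc7, Cdc20, Cdc45, Mki67, Birc5, Top2a, Bub1, Aurka and Aurkb, and without Ccng1 and Cdkn1a. It held 78 of the 22180 genes named on the array, and a gene with several probe sets was represented by the brightest. The cells came from C57BL/6J embryos close to birth and were kept for 11 days in vitro. Medium was renewed every 96 h, with AraC at 1 µg/ml in the first change and 0.5 µg/ml in the second, for both groups alike. 4 samples were untreated and 4 were held in 55 mM KCl for 4 h, which depolarises neurons. Each array carries its own mouse number, but nothing says whether hippocampi were pooled, so the p-values measure the spread between these samples.

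In a dividing cell, D-type cyclins with Cdk4 or Cdk6 and then cyclin E with Cdk2 release E2F factors from the retinoblastoma protein. E2F factors switch on the replication genes, the Mcm helicase is loaded at replication origins, and cyclin A and cyclin B with Cdk1 drive mitosis. Neurons leave this cycle for good, and inhibitors such as Cdkn1b help to hold them out of it. Several cyclins and kinases of the same families have other work: Cdk5 acts in postmitotic neurons, and Cdk9, Cdk11, Cdk12 and Cdk13 with cyclins T, L and K act on RNA polymerase II and splicing. Cdk11 also has a form that works in mitosis.

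On the 8 arrays the median log2 value over all 34472 probe sets was 4.44 to 4.48. A principal component that held 36.6% of the variance over genes set both arrays numbered 1 apart, with scores of 48.6 and 43.2 against -26.6 to 4.58 on the other 6. The mean level of 12 neuronal markers was 10.08 to 10.56 in untreated and 10.06 to 10.50 in KCl arrays. The mean of 10 astrocyte markers was 7.86 to 8.60 and 7.83 to 8.40, with the connexin Gjb6 at 3.58 to 3.92 and 3.52 to 3.97 and the glutamate transporter Slc1a3 at 11.03 to 11.64 and 11.09 to 11.29. The mean of 10 microglial markers was 4.18 to 4.49 over all 8 arrays, with Aif1 at 3.89 to 4.32 and 3.78 to 4.15 and the chemokine receptor Cx3cr1 at 4.99 to 5.77 and 5.08 to 5.51. The mean of 9 oligodendrocyte lineage markers was 4.77 to 4.91 and 4.76 to 4.94. The precursor receptor Pdgfra lay at 3.60 to 3.99 and 3.64 to 3.79, and of the lineage factors Olig1 lay at 7.10 to 7.70 and 6.83 to 7.52 and Olig2 at 5.77 to 7.09 and 5.57 to 7.92. These are whole-culture RNA levels, in which fewer cells of a type and less RNA per cell cannot be told apart.

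After 4 h of KCl, 4 of the 78 genes rose and 1 fell at an adjusted p under 0.05, and 73 did not pass. The 4 that rose were Cdk11b, Ccnl1 and Ccnt1, which act in transcription and splicing, and Cdkn1b, the inhibitor p27. The gene that fell was Mcm3ap, which encodes an mRNA export factor. None of the 24 genes of mitosis and replication licensing was among them. Over all 22180 genes, 1.34% rose and 1.02% fell, against 5.13% and 1.28% of these 78. The median log2 change was 0.06 over the 78 genes and -0.01 over all genes. The KCl arrays lay entirely above the untreated arrays for 9 of the 78 genes (11.5%) and entirely below for 2 (2.56%), against 3.83% and 4.33% of all genes. The count of 4 was 1 (Cdk11b) without untreated replicate 2 or 3 or KCl replicate 2 or 3, and 3 when the replicate number was added as a block. That fit called 1 fall among the 78, and 2.43% of all genes rose and 2.01% fell in it. Without both arrays numbered 1, Cdk11b, Cdkn1b and the mitotic kinase gene Cdk1 rose and Mcm3ap fell, when 1.12% of all genes rose and 0.974% fell.

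**Figure D1:**
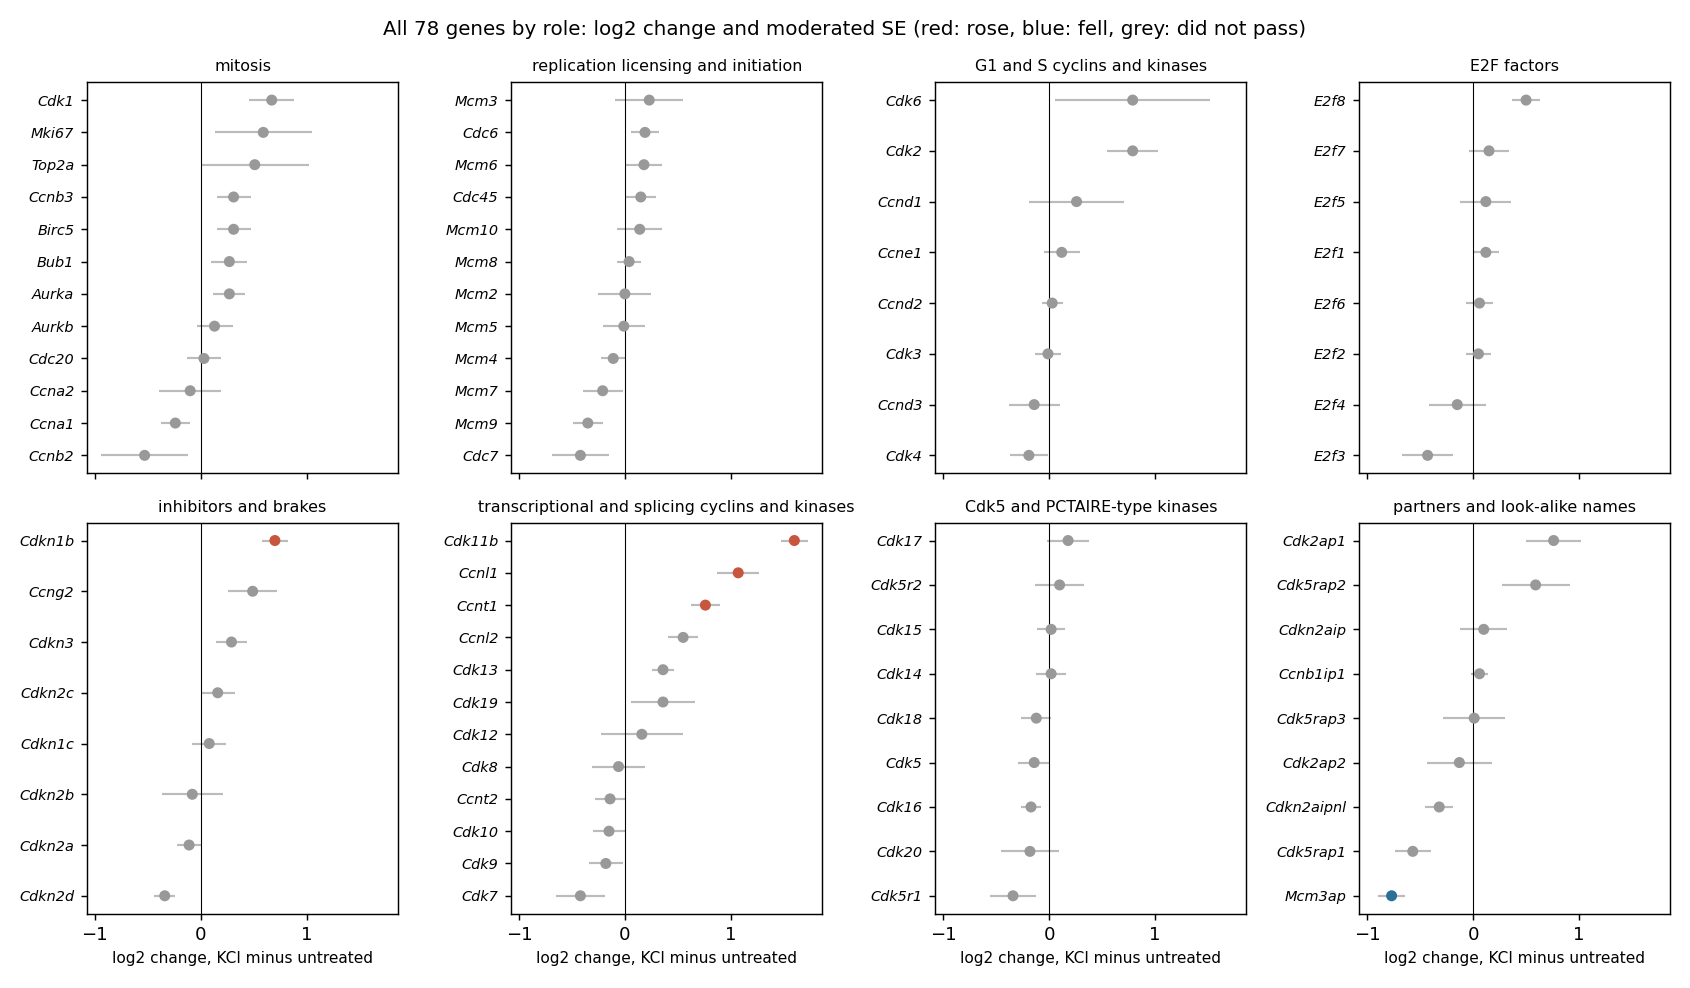
Log2 change from untreated to KCl (x axis) for each of the 78 genes, in 8 panels by role, with the moderated standard error as a bar, n = 4 arrays a group. Red marks the 4 genes that rose, 3 of them among the transcriptional and splicing genes, blue marks Mcm3ap, which fell, and grey marks the 73 that did not pass.

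The promoters of these 5 genes are shown because their RNA is what changed. Each is the RefSeq window of assembly GRCm38.p6 from 250 bases before the gene's start to 50 bases after it, read 5′ to 3′ along the gene. Capitals mark the cyclic AMP response element TGACGTCA, the site that CREB binds, or the half-site form TGACGT, which on the other strand reads ACGTCA.
Cdk11b (chr4:155624604-155624903, plus strand): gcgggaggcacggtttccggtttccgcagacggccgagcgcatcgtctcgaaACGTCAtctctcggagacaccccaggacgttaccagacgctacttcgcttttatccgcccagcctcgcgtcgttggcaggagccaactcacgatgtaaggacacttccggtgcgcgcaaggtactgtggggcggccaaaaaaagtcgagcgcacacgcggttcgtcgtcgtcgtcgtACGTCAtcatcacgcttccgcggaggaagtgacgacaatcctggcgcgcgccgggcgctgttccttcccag
Ccnl1 (chr3:65958200-65958499, minus strand): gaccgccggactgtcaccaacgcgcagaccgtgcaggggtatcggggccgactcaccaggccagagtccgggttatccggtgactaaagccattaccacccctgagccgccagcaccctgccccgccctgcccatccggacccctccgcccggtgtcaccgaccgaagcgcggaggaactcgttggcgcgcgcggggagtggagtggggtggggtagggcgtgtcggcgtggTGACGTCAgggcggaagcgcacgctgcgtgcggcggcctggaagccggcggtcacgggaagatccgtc
Ccnt1 (chr15:98567687-98567986, minus strand): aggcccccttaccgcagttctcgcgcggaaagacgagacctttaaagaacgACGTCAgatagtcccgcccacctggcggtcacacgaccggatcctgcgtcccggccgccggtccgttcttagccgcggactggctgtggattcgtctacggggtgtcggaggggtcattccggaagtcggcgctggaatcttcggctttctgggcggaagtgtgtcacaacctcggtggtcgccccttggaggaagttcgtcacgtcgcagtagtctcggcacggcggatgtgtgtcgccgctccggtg
Cdkn1b (chr6:134920151-134920450, plus strand): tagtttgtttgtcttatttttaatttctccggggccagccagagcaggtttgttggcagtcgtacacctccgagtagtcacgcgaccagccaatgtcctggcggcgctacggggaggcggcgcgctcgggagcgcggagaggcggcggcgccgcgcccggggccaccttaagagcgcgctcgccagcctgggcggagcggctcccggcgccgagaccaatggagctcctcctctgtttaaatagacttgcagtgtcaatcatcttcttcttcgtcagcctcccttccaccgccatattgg
Mcm3ap (chr10:76468652-76468951, plus strand): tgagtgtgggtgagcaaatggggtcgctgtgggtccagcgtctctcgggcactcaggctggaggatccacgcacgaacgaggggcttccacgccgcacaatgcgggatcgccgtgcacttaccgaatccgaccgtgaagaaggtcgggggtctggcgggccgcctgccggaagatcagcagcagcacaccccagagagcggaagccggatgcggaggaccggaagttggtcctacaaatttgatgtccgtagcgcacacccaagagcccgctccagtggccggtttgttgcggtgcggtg

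Both strands were searched in the 65 genes of the set that had a promoter entry, and the half-site was added after the values were seen. The whole element stood in 3 of 65 (Ccnl1, Cdkn2b and Mcm5), or 4.62%, against 2.03% of 27025 genes with a promoter. In Ccnl1 its first base lay at -18 from the start. The half-site, which the whole element contains, stood in 14 of 65 genes (21.5%, against 8.37% of all). The 14 included the 3 transcriptional genes that rose, with half-sites from -198 and -21 in Cdk11b and from -199 in Ccnt1, but not Cdkn1b or Mcm3ap. The shorter form CGTCA, or TGACG on the other strand, was not counted, and CGTCA stands in the Cdkn1b window shown. The AP-1 site TGAGTCA stood in 1 of 65 genes, Cdk15 (1.54%, against 5.95%).

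The E2F sites TTTCGCGC and TTTGGCGC are hallmarks of replication genes. At least 1 of them stood in 7 of the 65 (Cdk1, E2f2, Mcm3, Mcm5, Mcm6, Mcm7 and Mcm8), or 10.8%, against 0.929% of all genes. The CHR element TTTGAA, common in mitotic promoters, stood in 17 of 65 (26.2%, against 20.2%), among them Mki67, Top2a, Ccnb2 and Cdk1. None of the 7 genes with an E2F site and none of the 17 with a CHR element passed the limma test. Of all genes 1.34% rose and 1.02% fell, so the lack of a call among so few does not set them apart. A match describes these letters only, and binding was not measured.

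The cyclins and kinases of transcription and splicing held 3 of the 5 genes that changed. Of the 12 measured, 3 rose, 9 did not pass and none fell, when 1.34% of all genes rose and 1.02% fell. The roles were set with earlier results of these data known. Before adjustment 5 of 12 had a limma p under 0.05, against 13.0% of all genes. Cdk11b (probe set 17422629), a kinase that binds cyclin L and phosphorylates splicing factors, stood at 7.24, 7.58, 7.39 and 7.53 in untreated arrays 1 to 4 and at 8.89, 9.29, 8.88 and 9.08 in KCl arrays 1 to 4. The groups lay far apart, and the lowest KCl array was well above the highest untreated one. The rise was 3.03-fold (log2 change 1.60, SE 0.13, adjusted p = 0.000914), from 7.44 ± 0.16 to 9.03 ± 0.19 (SD, n = 4 each).

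Ccnl1 (probe set 17405688), which encodes cyclin L1, the partner of Cdk11, had values of 8.40, 8.32, 8.39 and 9.15 without and 9.76, 9.73, 9.76 and 9.31 with KCl. The array numbered 4 stood apart in both groups: the untreated one was the highest of its group and the KCl one the lowest, and the groups still did not overlap. Ccnl1 rose 2.11-fold (log2 change 1.07, SE 0.20, adjusted p = 0.0323). Ccnt1 (probe set 17321248) encodes cyclin T1, which with Cdk9 releases paused RNA polymerase II. Its values were 8.17, 8.58, 8.56 and 8.63 untreated and 9.28, 9.47, 9.28 and 8.96 after KCl, again without overlap. It rose 1.70-fold (log2 change 0.76, SE 0.14, adjusted p = 0.0337).

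Cdk11b passed in all 8 fits with an array left out (adjusted p up to 0.00657). Ccnl1 passed only without untreated replicate 4 (0.0109) or KCl replicate 4 (0.0496), and reached 0.104 without KCl replicate 3. Its adjusted p was 0.0502 with the replicate number as a block. Ccnt1 passed only without untreated replicate 1 (0.0492) or KCl replicate 4 (0.0394), and reached 0.104 without KCl replicate 3. Both thus missed it without untreated replicate 2 or 3 or KCl replicate 1, 2 or 3, as did Ccnl1 without untreated replicate 1 and Ccnt1 without untreated replicate 4. Without both arrays numbered 1 the adjusted p was 0.00464 for Cdk11b, 0.111 for Ccnl1 and 0.0838 for Ccnt1.

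**Figure D2:**
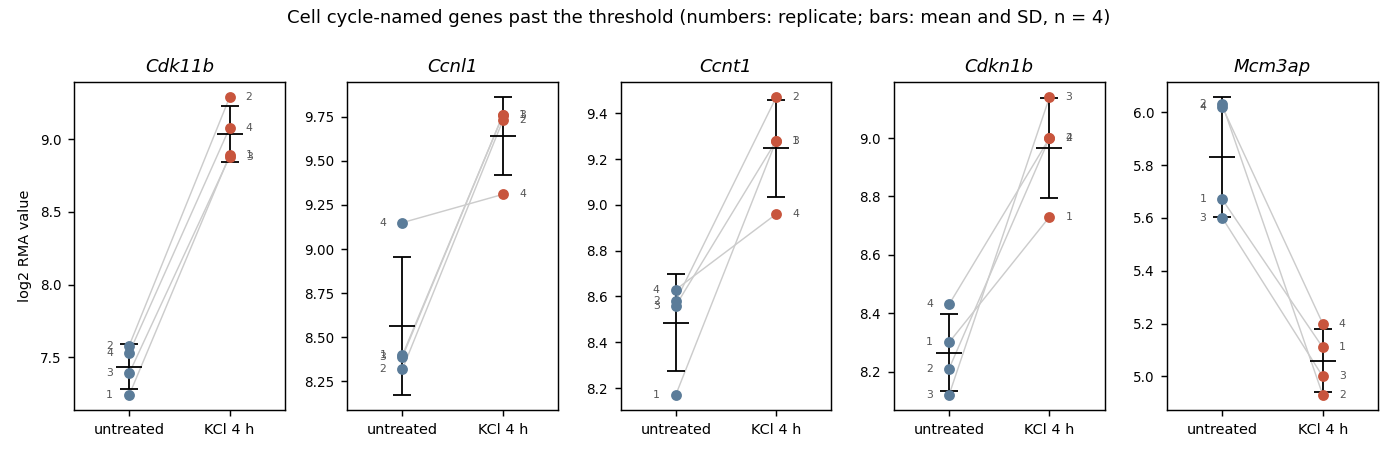
Log2 RMA value (y axis) of the 5 genes past the threshold in untreated and KCl arrays, with the replicate number beside each point, grey lines joining equal numbers, and bars for the mean and SD (n = 4). The groups do not overlap in any panel, and in Ccnl1 the array numbered 4 is set off from the other 3 in both groups.

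The other members of this role did not pass. Ccnl2, which encodes cyclin L2, had a log2 change of 0.55 (adjusted p = 0.0973) and Cdk13, a polymerase kinase that pairs with cyclin K, one of 0.36 (0.153), both chosen after their values were seen because the KCl arrays lay above all untreated ones. A second probe set of Ccnl2 had a log2 difference of 0.16. Cdk9, the catalytic partner of cyclin T1, stood at -0.18 and Ccnt2, the other T cyclin, at -0.14. Cdk7, the kinase of the general factor TFIIH, stood at -0.42 (adjusted p = 0.52). Cdk12, Cdk8, Cdk19 and Cdk10 lay between -0.15 and 0.36. The mean level over the 12 genes was 7.69 to 8.01 in untreated arrays and 8.17 to 8.26 in KCl arrays.

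Among the 8 inhibitors and brakes, Cdkn1b rose and the other 7 did not pass. Cdkn1b (probe set 17463718) encodes p27, which blocks cyclin E with Cdk2 and also acts in neuronal migration. Its values were 8.30, 8.21, 8.12 and 8.43 in untreated and 8.73, 9.00, 9.14 and 9.00 in KCl arrays, and the lowest KCl value lay above the highest untreated one. It rose 1.63-fold, from 8.26 ± 0.14 to 8.97 ± 0.17 (SD, n = 4 each; log2 change 0.70, SE 0.12, adjusted p = 0.0201). The call did not survive leaving out untreated replicate 2 (0.0656) or 3 (0.0649) or KCl replicate 2 (0.0561), 3 (0.0669) or 4 (0.0658). It was kept without both arrays numbered 1 (0.0273), but not when the replicate block was added to that fit (0.0526).

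Cdkn2d, the INK4 inhibitor of Cdk4 and Cdk6 known from mature neurons, had lower values in KCl: 8.02, 7.80, 8.10 and 7.85 against 7.53, 7.64, 7.71 and 7.54. No KCl array reached the lowest untreated one, yet the log2 change of -0.34 (SE 0.10) did not pass (adjusted p = 0.153). Ccng2, an unconventional cyclin associated with arrest, stood at 6.53, 6.49, 6.50 and 6.52 untreated and 6.67, 6.63, 7.77 and 6.96 after KCl. The untreated arrays were nearly equal, the KCl arrays were all higher, and KCl replicate 3 stood well above the others. Its log2 change was 0.49 (SE 0.23, adjusted p = 0.434). The remaining 5, Cdkn1c, Cdkn2a, Cdkn2b, Cdkn2c and Cdkn3, lay between -0.11 and 0.29.

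Of 24 measured genes of mitosis and of replication licensing, none rose or fell, in the fit with or without the replicate block. Without the block 1.34% of all genes rose and 1.02% fell, and with it 2.43% and 2.01%, so 24 genes without a call do not stand out. Before adjustment 2 of 24 had a limma p under 0.05, Cdk1 and Mcm9, against 13.0% of all genes, and without both arrays numbered 1 a single one, Cdk1, passed. In the 12 mitotic genes 9 log2 changes were positive and 3 negative, with a median of 0.27, and 47.1% of all genes had a positive change. In the 12 licensing genes 6 were positive and 6 negative, with a median of 0.02. The groups overlapped for each of the 24 genes. Of all genes 3.83% had the KCl arrays entirely above and 4.33% entirely below, so this does not stand out either. A missed threshold does not show that a level was the same. Some of these genes spread widely between arrays and others did not. The SE was 0.51 for Top2a and 0.46 for Mki67 but 0.11 for Mcm8, against a median of 0.142 over all genes.

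Mki67, which encodes the proliferation antigen Ki-67, stood at 5.53, 7.02, 6.31 and 5.56 in untreated arrays 1 to 4 and at 5.65, 7.33, 7.39 and 6.41 in KCl arrays 1 to 4. Arrays numbered 2 and 3 were the highest in both groups, and each KCl array lay above the untreated array of its number. The log2 change was 0.59 with an SE of 0.46 (adjusted p = 0.735), and the SE was 0.17 with the replicate block (adjusted p = 0.131). Top2a, the topoisomerase that disentangles replicated chromosomes, had 5.25, 6.81, 5.77 and 4.76 untreated and 5.25, 6.66, 7.05 and 5.68 with KCl, again highest in arrays 2 and 3. Its log2 change was 0.51 (SE 0.51, adjusted p = 0.825), and KCl was higher in 2 of 4 pairs. A pair of probe sets shared between Top2a and Taf1d, from which neither gene can be named, differed by -0.10 and -0.07.

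Cdk1, the mitotic kinase, stood at 4.13, 4.26, 4.25 and 4.28 in untreated and 4.26, 4.90, 5.31 and 5.14 in KCl arrays. The untreated arrays were close together, KCl arrays 2 to 4 lay above all of them, and KCl array 1 was level with the untreated ones. On all untreated arrays and KCl array 1, Cdk1 lay below the array medians of 4.44 to 4.48, a range in which RMA flattens differences. Its log2 change was 0.67 (SE 0.21, adjusted p = 0.176), and Cdk1 was higher in 4 of 4 pairs. Without KCl replicate 1 it passed, with a log2 change of 0.89 (adjusted p = 0.0149), and it did without both arrays numbered 1 (0.86, adjusted p = 0.0253). Ccnb2, the cyclin B2 gene, was chosen after its values were seen because it ran the other way: 4.74, 6.44, 5.57 and 4.65 untreated and 4.62, 5.26, 5.15 and 4.23 after KCl. It was lower in 4 of 4 pairs, with a log2 change of -0.53 (SE 0.41, adjusted p = 0.726). Ccnb1 was not among the 22180 genes.

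Birc5, the survivin gene of the chromosomal passenger complex, stood at 3.92, 4.06, 3.80 and 4.12 and 4.29, 4.57, 4.43 and 3.86, with a log2 change of 0.31 (adjusted p = 0.475). Ccnb3, a B-type cyclin best known from the germ line, had 4.06, 3.76, 3.95 and 3.81 and 3.77, 4.31, 4.50 and 4.24, also 0.31 (adjusted p = 0.494). For both genes KCl was higher in 3 of 4 pairs, the groups overlapped, and the untreated values lay below the array medians of 4.44 to 4.48. The remaining mitotic genes, Aurka, Aurkb, Bub1, Ccna1, Ccna2 and Cdc20, lay between -0.24 and 0.27.

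**Figure D3:**
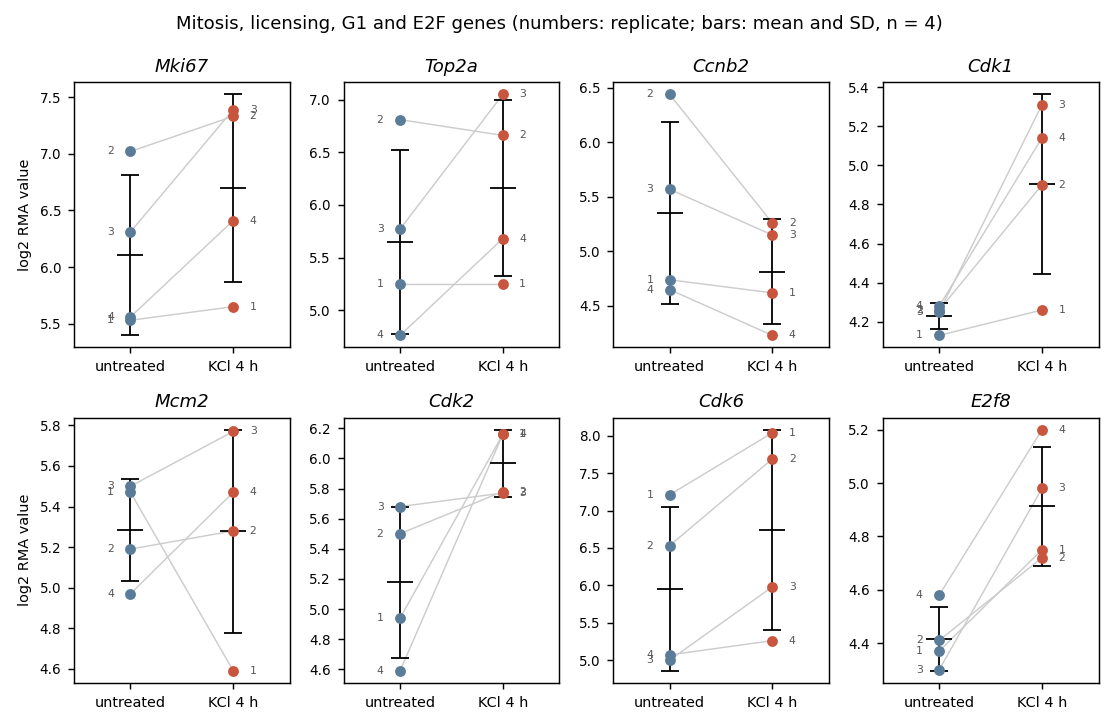
Log2 RMA value (y axis) of 8 genes of mitosis, licensing, G1 and the E2F family that did not pass, with replicate numbers, lines between equal numbers, and the mean and SD (n = 4). Mki67 and Top2a are highest in arrays 2 and 3 of both groups, Cdk6 in arrays 1 and 2, while Cdk1 separates except for KCl array 1.

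The licensing genes showed no common direction. Mcm2, a subunit of the helicase ring, stood at 5.47, 5.19, 5.50 and 4.97 and 4.59, 5.28, 5.77 and 5.47: KCl array 1 was the lowest of all 8 and KCl array 3 the highest. Its mean was 5.28 in both groups (SE of the difference 0.25). Mcm9, which pairs with Mcm8 in recombination repair, had 4.78, 4.58, 4.98 and 4.50 and 4.30, 4.38, 4.64 and 4.13, lower in 4 of 4 pairs (log2 change -0.35, SE 0.14, adjusted p = 0.347). Cdc7, the kinase that fires origins together with Dbf4, had 4.92, 4.47, 4.83 and 5.64 and 4.27, 4.46, 4.37 and 5.09, also lower in 4 of 4 pairs (-0.42, SE 0.27, adjusted p = 0.63). Array 4 was the highest of its group for Cdc7 in both groups. Cdc6, which loads the helicase, had 3.89, 4.08, 3.83 and 3.71 and 3.79, 4.27, 4.22 and 3.99 (0.19, adjusted p = 0.692). Every value of Cdc6 lay below the array medians of 4.44 to 4.48. The other 8, Cdc45, Mcm3 to Mcm8 and Mcm10, lay between -0.21 and 0.23.

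The levels of dividing-cell genes differed between array numbers in both groups alike. The mean over the 12 mitotic genes was 4.55, 5.08, 4.82 and 4.47 in untreated arrays 1 to 4 and 4.54, 5.07, 5.29 and 4.75 in KCl arrays 1 to 4. Neural progenitor markers averaged 7.68, 7.36, 7.09 and 6.93 untreated and 7.77, 7.59, 7.45 and 7.14 with KCl, and their order over arrays was not that of the mitotic genes. The 10 progenitor markers gave no call without the block, and Pax6 and Tnc passed with it (adjusted p = 0.0461 and 0.0421). Of their log2 changes 8 were positive and 2 negative (Fabp7 at -0.05 and Sox1 at -0.29). Of all genes 1.34% rose and 1.02% fell without the block, and 2.43% rose and 2.01% fell with it. Astrocyte markers averaged 8.60, 8.25, 8.10 and 7.86 untreated and 8.40, 8.08, 8.01 and 7.83 with KCl. Of these 10 markers 1 fell, the glutamate transporter Slc1a2 (log2 change -0.78, adjusted p = 0.0479, but 0.062 with the block and 0.13 without both arrays numbered 1). The part of these cell types in the levels of the cell cycle genes was not tested.

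**Figure D4:**
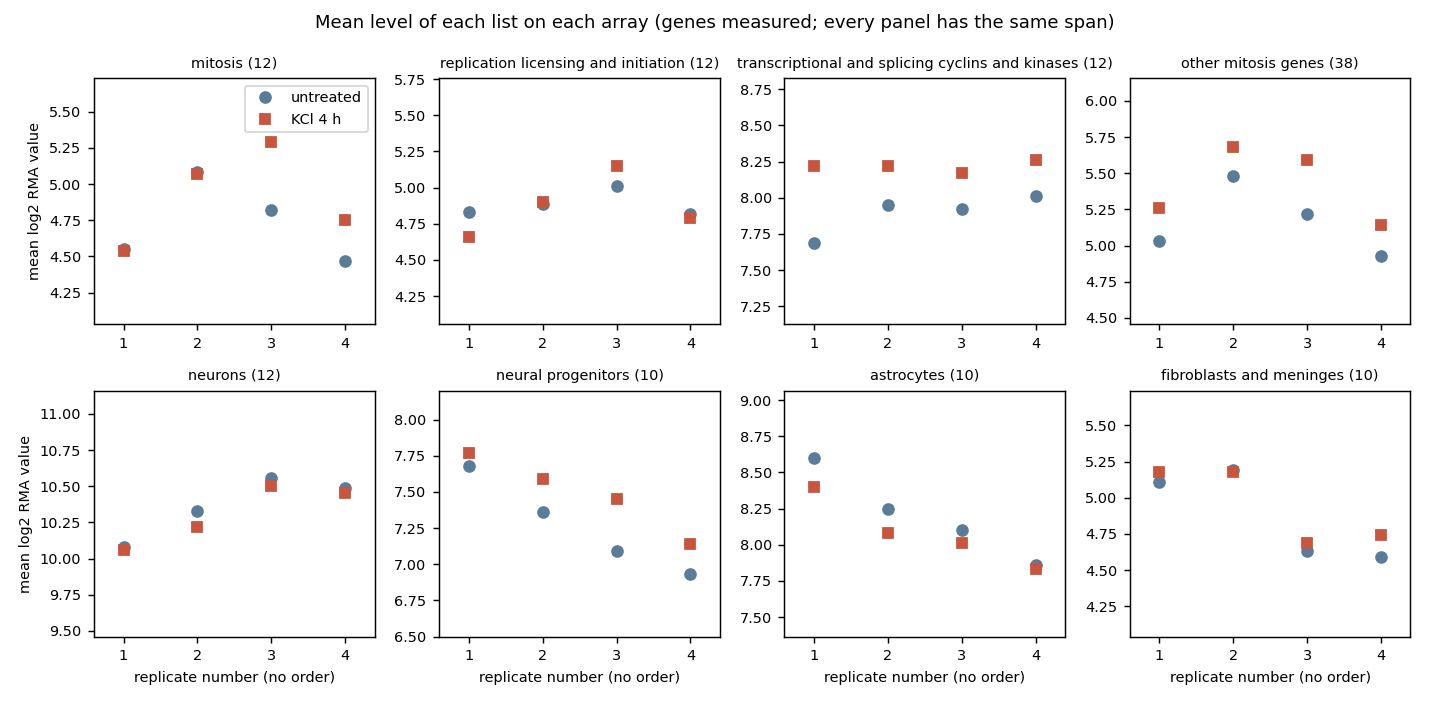
Mean log2 RMA value (y axis) of 4 cell cycle lists and 4 marker lists on each array, by replicate number (x axis, a name without order), untreated as circles and KCl as squares. Mitotic genes are highest in arrays 2 and 3, progenitor and astrocyte markers in array 1, and KCl lies above untreated at all 4 numbers for the transcriptional and splicing genes, the other mitosis genes and the progenitor markers, and below it for neurons and astrocytes.

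None of the 8 G1 and S cyclins and kinases passed. Cdk2, the S phase kinase, stood at 4.94, 5.50, 5.68 and 4.59 untreated and 6.16, 5.78, 5.77 and 6.16 after KCl: the KCl arrays lay above all untreated ones, narrowly for untreated array 3. Its log2 change was 0.79 (SE 0.24, adjusted p = 0.168). Cdk6, a G1 kinase also active in progenitors, had 7.21, 6.53, 5.00 and 5.07 and 8.04, 7.69, 5.98 and 5.26. Arrays 1 and 2 exceeded arrays 3 and 4 in both groups by more than any same-numbered arrays of the 2 groups differed, and KCl was higher in 4 of 4 pairs. The log2 change of Cdk6 was 0.79 with an SE of 0.73 (adjusted p = 0.797), and with the replicate block the SE was 0.17 (adjusted p = 0.0517). The means of several marker lists followed a like division of the arrays. For fibroblasts and meninges they were 5.11 and 5.19 against 4.63 and 4.59 untreated and 5.18 and 5.18 against 4.69 and 4.74 with KCl. For endothelium they were 4.51 and 4.57 against 4.24 and 4.26 untreated and 4.62 and 4.66 against 4.35 and 4.36 with KCl. On that list Kdr, Ocln and, narrowly, Vwf had both arrays 1 and 2 above both arrays 3 and 4 in each group. Kdr stood at 7.76, 8.17, 5.42 and 5.48 untreated and 7.91, 8.34, 5.62 and 5.18 with KCl. Pecam1, Cldn5, Cdh5, Tek, Flt1, Esam and Tie1 did not follow the division. Progenitor and astrocyte means were also higher in arrays 1 and 2 of both groups. Col1a2, Col3a1, Dcn, Lum and Twist1, on the fibroblast list, did not follow the division by this rule either. The part of these cell types in the values of Cdk6 was not tested.

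Cdk4, the other kinase of D-type cyclins, had 9.08, 8.57, 8.57 and 8.29 and 8.46, 8.65, 8.49 and 8.16 (log2 change -0.19, SE 0.18, adjusted p = 0.799). Apart from untreated array 1, its values in the groups overlapped closely. The D cyclins Ccnd1, Ccnd2 and Ccnd3 stood at 0.26, 0.03 and -0.14, with SEs of 0.45, 0.10 and 0.24, and Ccne1 and Cdk3 at 0.12 and -0.01. Ccne2 was measured only on a probe set that it shares with Ints8, which had a log2 difference of 0.02.

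The 8 E2F factors gave no call either. E2f8, an atypical family member that represses E2F target genes, stood at 4.37, 4.41, 4.30 and 4.58 and 4.75, 4.72, 4.98 and 5.20, with all KCl arrays above all untreated ones. Its log2 change of 0.50 (SE 0.13) missed the threshold without the replicate block (adjusted p = 0.102) and with it (0.0548). E2f3, an activator of S phase genes, had 7.10, 7.62, 7.40 and 7.44 and 6.33, 7.27, 7.41 and 6.82, with KCl array 1 the lowest (log2 change -0.43, SE 0.24, adjusted p = 0.53). E2f1, the founding activator, had 4.76, 4.99, 4.60 and 4.96 and 4.89, 4.79, 4.98 and 5.13 (0.12, adjusted p = 0.815). E2f2, E2f4, E2f5, E2f6 and E2f7 lay between -0.15 and 0.15.

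Cdk5 with its activators, the PCTAIRE-type kinases and their relatives made up 9 genes, and none passed. Cdk5 itself, a regulator of neuronal migration and synapses, stood at 8.62, 9.07, 9.16 and 8.68 and 8.55, 8.75, 8.98 and 8.71 (log2 change -0.14, SE 0.15, adjusted p = 0.85). Its activator Cdk5r1, which encodes p35, had 7.57, 8.39, 8.38 and 8.17 and 7.34, 7.93, 8.10 and 7.75. Each KCl array lay below the untreated array of its number, but the groups overlapped, and array 1 was the lowest of both (log2 change -0.34, SE 0.22, adjusted p = 0.639, 0.111 with the block). Cdk16, a PCTAIRE kinase, had 10.01, 9.98, 9.75 and 9.93 and 9.65, 9.86, 9.70 and 9.75, lower in 4 of 4 pairs (-0.17, SE 0.09, adjusted p = 0.526). Cdk17, another PCTAIRE kinase, had 7.69, 8.19, 8.38 and 8.45 and 8.05, 8.22, 8.71 and 8.45, level at number 4 and higher with KCl at the other 3 numbers (0.18, SE 0.20, adjusted p = 0.845). Cdk5r2, Cdk14, Cdk15, Cdk18 and Cdk20 lay between -0.18 and 0.10.

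The last 9 genes carry a cell cycle name through a binding partner. Mcm3ap (probe set 17234519), which encodes the nuclear pore-associated export factor GANP, was named for binding Mcm3. Its values were 5.67, 6.03, 5.60 and 6.02 untreated and 5.11, 4.93, 5.00 and 5.20 after KCl, and every KCl array was below every untreated one. The log2 change was -0.77 (SE 0.13, adjusted p = 0.0205), a fall to 0.586 of the level without KCl. The call did not survive leaving out KCl replicate 2 (0.0575) or 3 (0.0721) or untreated replicate 2 (0.0596) or 4 (0.0523), nor a fit with trended and robust eBayes (0.0604).

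Cdk5rap1, a mitochondrial tRNA-modifying enzyme, had 5.85, 5.67, 5.43 and 5.95 and 5.60, 5.10, 5.01 and 4.92, lower in 4 of 4 pairs (log2 change -0.57, SE 0.17, adjusted p = 0.175). Cdk2ap1, a chromatin-associated binder of Cdk2, had 5.66, 5.82, 5.72 and 5.14 and 6.26, 5.74, 7.0 and 6.37, with KCl array 3 the highest (0.76, SE 0.26, adjusted p = 0.237). Its second probe set had a log2 difference of 0.51. The other 6, Ccnb1ip1, Cdk2ap2, Cdk5rap2, Cdk5rap3, Cdkn2aip and Cdkn2aipnl, lay between -0.32 and 0.59.

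Further genes of the cycle, outside the naming pattern, were taken as 3 lists: replication and S phase, mitosis, and regulators. Of 111 measured genes, 7 rose, 104 did not pass and none fell, when 1.34% of all genes rose and 1.02% fell. The lists were chosen with earlier results of these data known, so these shares describe them and are no independent test. Chek1, Rrm1, Bub1b and Pcna act in replication, its surveillance or the spindle checkpoint. Btg1 and Btg2 restrain proliferation, and Ccnk encodes cyclin K, which acts in transcription. The lists gave 2 of 38, 1 of 38 and 4 of 35 genes that rose, with median log2 changes of 0.07, 0.23 and 0.04. Positive log2 changes made up 22 of 38, 31 of 38 and 20 of 35, against 47.1% of all genes. Before adjustment 19 of 111 (17.1%) had a limma p under 0.05, against 13.0% of all genes.

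Chek1, the kinase that halts the cycle when replication stalls, stood at 4.56, 4.61, 5.26 and 4.75 and 6.10, 6.42, 6.85 and 7.0. It rose 3.49-fold (log2 change 1.80, SE 0.23, adjusted p = 0.00751). Rrm1, the large subunit of the enzyme that makes deoxyribonucleotides, stood at 6.57, 7.20, 7.16 and 6.71 and 7.75, 9.04, 8.67 and 8.90, and KCl array 1 was the lowest of its group. It rose 3.21-fold (1.68, SE 0.29, adjusted p = 0.0234). Bub1b, a spindle checkpoint kinase, stood at 4.26, 4.34, 4.33 and 4.11 and 4.69, 5.35, 5.79 and 5.66, again with KCl array 1 nearest the untreated ones. It rose by a log2 of 1.11 (SE 0.22, adjusted p = 0.0422), and no fold is given because its untreated values lay below the array medians. Pcna, the polymerase clamp that also serves DNA repair, stood at 8.97, 9.42, 9.40 and 9.23 and 9.86, 10.07, 10.24 and 10.08, and rose 1.75-fold (0.81, SE 0.13, adjusted p = 0.0191). In these 4 genes the groups did not overlap.

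Btg1 stood at 5.34, 5.50, 5.20 and 5.57 and 6.80, 7.17, 6.87 and 7.13 and rose 3.01-fold (log2 change 1.59, SE 0.13, adjusted p = 0.00094). Btg2 stood at 8.23, 7.20, 6.38 and 6.91 and 8.95, 8.93, 8.62 and 8.99 and rose 3.22-fold (1.69, SE 0.34, adjusted p = 0.0438), with untreated array 1 the highest of its group. Ccnk stood at 9.00, 8.76, 8.95 and 9.19 and 10.01, 9.91, 9.86 and 10.04 and rose 1.97-fold (0.98, SE 0.11, adjusted p = 0.00429). Cyclin K binds Cdk12 and Cdk13, which did not pass (log2 changes 0.16 and 0.36).

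**Figure D5:**
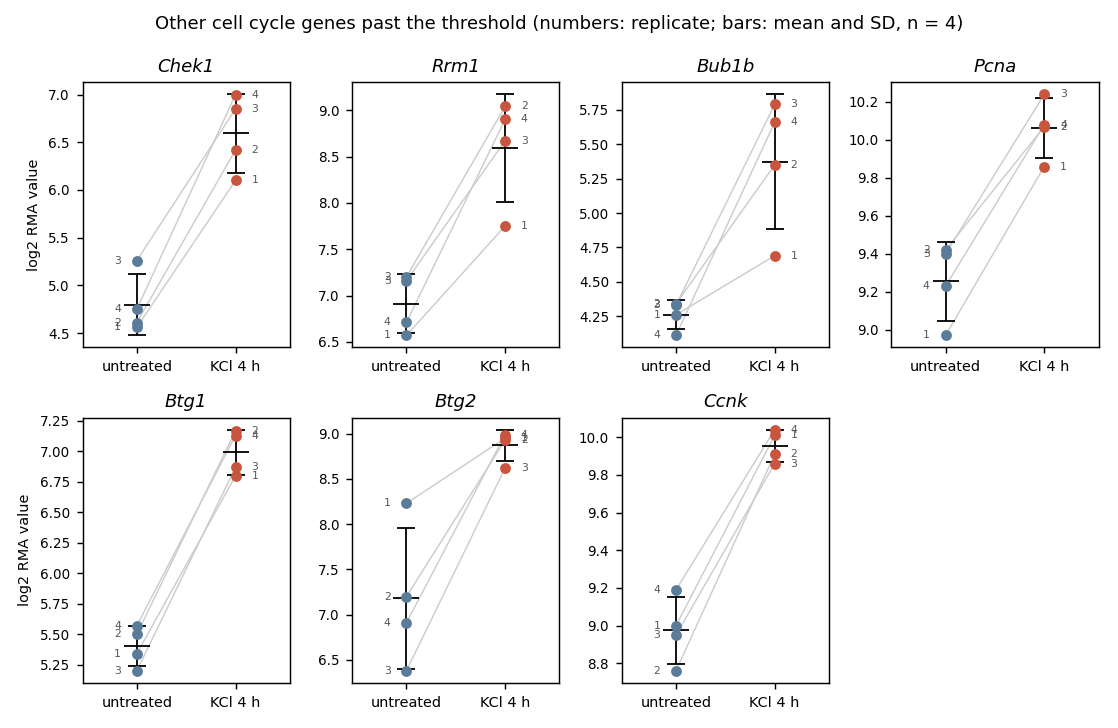
Log2 RMA value (y axis) of the 7 other cell cycle genes that rose, in untreated and KCl arrays, with replicate numbers, lines between equal numbers, and the mean and SD (n = 4). All KCl arrays lie above all untreated arrays in every panel, and KCl array 1 is the lowest of its group for Chek1, Rrm1, Bub1b, Pcna and Btg1.

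Chek1, Ccnk and Btg1 passed in all 8 fits with an array left out. Pcna missed the threshold without untreated replicate 4 (0.0521) or KCl replicate 2 (0.051), 3 (0.0667) or 4 (0.0613). Rrm1 was lost in the same fits and without untreated replicate 2 or 3 (up to 0.0769). Bub1b passed in a single one, that without KCl replicate 1 (0.0046), and Btg2 in that without untreated replicate 1 (0.00395). All 7 passed without both arrays numbered 1 (adjusted p up to 0.0217). Of the 7, Pcna also passed without untreated replicate 2 or 3, so 4 of the 111 rose there. Without KCl replicate 2 the count was 4 as well, with the polymerase subunit Pola1 (adjusted p = 0.0154) beside Chek1, Ccnk and Btg1. The count was 3 without untreated replicate 4 or KCl replicate 3 or 4.

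With the replicate block 12 of the 111 rose and none fell, when 2.43% of all genes rose. The 5 added genes were Dbf4, the activator of Cdc7 (log2 change 0.50, adjusted p = 0.0435), Ect2, a cytokinesis factor (0.87, 0.0211), Lin54, a DNA-binding subunit of the complex that reads CHR elements (0.95, 0.0323), and the Polo-like kinases Plk2 (0.95, 0.0139) and Plk3 (0.74, 0.0427). Ect2 stood at 5.55, 6.68, 5.38 and 4.55 untreated and 6.19, 7.36, 6.64 and 5.45 after KCl. The array numbered 2 was the highest and that numbered 4 the lowest of each group, and the SE of its change was 0.50 without the block and 0.13 with it.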

How the data were processed

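The authors deposited log2 values per probe set from Affymetrix arrays. The submitters' processing notes name RMA and Partek without settings, and no source used here gives the genome build. RMA scales arrays against each other and flattens differences of dim probe sets, so dim genes can be present and their fold changes are understated. Of 34472 probe sets, 23521 had 1 symbol in the platform annotation, and the brightest one, by its mean over the 8 arrays, stood for each of 22180 genes. All 78 members matched a gene in the RefSeq table of GRCm38.p6, and 65 had a promoter there.

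Sample titles gave the groups. The test was limma 3.58.1 (R 4.3.3; lmFit and eBayes, two-sided) with group as the single term and Benjamini-Hochberg adjustment over all genes at 0.05, and standard errors are the moderated ones. Same-numbered arrays of the 2 groups deviated together from their group means (r = 0.64, 0.23, 0.41 and 0.37 across genes, all over 0.1). These numbers were treated as pairs in a second fit, with a replicate block, although the mouse numbers differ. In 10 simulations of this comparison over 22180 genes, 67.5% of genes changed by a log2 of 1 and 94.2% of those changed by 2 were recovered, and 6.68% of calls were false. With the block these were 44.4%, 86.9% and 4.36%. The simulated noise was drawn separately for each array, without a shared effect of replicate number. The simulations thus cannot tell which fit recovers more in these data. Alternatives changed the normalization, the centring, the filter on dim genes, the probe sets used, the variance model and the arrays. Per-array values are given for members past the threshold, the 3 smallest p-values of each role, and set marker genes. Members, roles, lists and alternatives were chosen with earlier results of these data known. Figures were drawn with matplotlib 3.10.9.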

Additional observations from a re-analysis of the deposited data

Results flagged for a closer look

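In 5 of 80 groups of 4 arrays checked for named genes, 1 array was set apart from the other 3 by more than Dixon's 95% critical value, which chance gives for about 1 group in 20. For Ccnl1, replicate 4 was set apart in both groups, at 9.15 untreated and at 9.31 with KCl. For Ccnt1 it was untreated replicate 1, at 8.17. For Lin54 it was KCl replicate 3, at 7.88, and for Btg2 KCl replicate 3, at 8.62.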

How the results depend on the processing

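Over fits that left out 1 array, 1 to 3 members rose and 0 to 1 fell, 3 to 6 of the other cell cycle genes rose, none of these fell, and the median log2 change of the members was 0.03 to 0.10. With both arrays numbered 1 left out and the replicate block, 2 members rose. With trended and robust eBayes 0 members fell. With the replicate block 12 of the other genes rose, and the block otherwise changed the call of Ccnl1 and of no other named member. The other settings with all arrays, and the fit without both arrays numbered 1, left the counts of genes that rose or fell within 1.5 times. The log2 change of Mcm2 turned positive after repeated quantile normalization (0.06), centring on array medians (0.01) and array weights (0.07). It ranged from -0.16 to 0.23 over fits that left out 1 array, and was 0.29 when both arrays numbered 1 were dropped, whether or not the block was included. For the 40 named genes, 598 of 673 refitted values kept direction and side of the threshold, 53 lost a call, 14 gained one and 8 turned sign. The cause of these shifts was not tested. The number of arrays limits precision, and signal over background could not be assessed.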
